A study of Mus musculus with 12 samples.

Results

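Egr1, Egr2 and Egr3, which code for transcription factors of the Egr family, and Nab1 and Nab2, which code for the repressors that bind them, were followed as 5 of the 26202 gene symbols in a table of expression in mouse CD4+ T cells. The 5 genes were taken by name, and all 5 were among the 9121 genes expressed highly enough to be tested. Naïve CD4+ T cells were purified from the spleen of C57BL/6 background mice, activated on plate-bound anti-CD3 with anti-CD28 and IL-2, and polarised for 5 days with IL-4 and anti-IFNγ (TH2 cells) or with IL-12 and anti-IL-4 (TH1 cells). Live CD4+ cells were then sorted for RNA-seq. The 4 groups of 3 libraries were TH2 Itgav KO, TH2 control, TH1 Itgav KO and TH1 control. The Itgav KO cells came from mice with both Cd4 CreERT2, a tamoxifen-inducible Cre made in CD4 cells, and a floxed Itgav gene, which codes for the αv chain of the integrin αvβ3. The controls carried Cd4 CreERT2 as well, without the floxed gene. The study's methods list 4-Hydroxytamoxifen among the agents added to cultures, but do not say which of the sequenced cultures had it. No gate on αv is named, so KO libraries may hold cells that kept the gene.

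Egr genes are immediate early genes, switched on within minutes when the T cell receptor signals through Ras and ERK to the serum response factor, and, for Egr2 and Egr3, also through calcineurin and NFAT. In T cells Egr1 is known for supporting activation and IL-2 transcription, and Egr2 and Egr3 for genes that restrain T cells, such as Cblb. Nab1 and Nab2 bind an inhibitory domain of Egr proteins and bring in the CHD4 subunit of the NuRD complex, which silences chromatin, and Nab2 is itself known as an Egr target, which closes a negative feedback loop.

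The promoters of Egr2 and of the Nab genes are shown because Egr2 fell in TH2 Itgav KO cells whereas the Nab genes did not pass the test. Windows of 300 bases around a start site were taken from RefSeq (GRCm38.p6) for Egr2, Nab1 and Nab2. Egr3 had 0 windows there, and the promoter of Egr1 is not shown. Egr2 had 5 such windows, and the one printed, chr10:67537620-67537919 on the plus strand, was chosen after the search because it holds matches. It shares them with a pair of overlapping windows. Of the other Egr2 windows, chr10:67537316-67537615 holds another CArG box and no half-site, and chr10:67535249-67535548 holds none of the motifs. The Nab1 window is chr1:52500399-52500698 and the Nab2 window is chr10:127666654-127666953, both on the minus strand. All are written 5′ to 3′, and capitals mark matches on either strand to the CArG box that binds serum response factor, to the Egr binding motif GCGNGGGCG, or to the half-site TGACG that binds CREB and ATF proteins.
Egr2: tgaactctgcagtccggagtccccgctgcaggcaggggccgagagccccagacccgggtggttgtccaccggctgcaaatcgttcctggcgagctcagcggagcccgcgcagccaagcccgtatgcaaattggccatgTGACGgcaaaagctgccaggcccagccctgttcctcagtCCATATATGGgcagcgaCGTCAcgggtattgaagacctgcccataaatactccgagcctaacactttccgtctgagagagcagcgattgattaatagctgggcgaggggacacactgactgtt
Nab1: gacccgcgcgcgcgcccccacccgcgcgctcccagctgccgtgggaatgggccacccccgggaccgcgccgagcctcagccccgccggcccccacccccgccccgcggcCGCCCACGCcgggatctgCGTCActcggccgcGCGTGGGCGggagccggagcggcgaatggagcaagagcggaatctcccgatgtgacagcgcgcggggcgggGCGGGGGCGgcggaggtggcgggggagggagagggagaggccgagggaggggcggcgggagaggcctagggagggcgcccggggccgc
Nab2: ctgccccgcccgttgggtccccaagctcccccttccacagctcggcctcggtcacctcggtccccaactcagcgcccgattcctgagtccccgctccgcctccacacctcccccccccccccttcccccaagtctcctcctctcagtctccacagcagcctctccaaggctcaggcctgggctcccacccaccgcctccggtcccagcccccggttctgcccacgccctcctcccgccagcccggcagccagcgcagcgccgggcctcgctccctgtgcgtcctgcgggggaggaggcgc
In the Egr2 window, the CArG box began 73 bases upstream of the start site, between half-sites that began 112 and 56 bases upstream. The Nab1 window held 3 Egr motifs, beginning 141, 109 and 38 bases upstream, and 1 half-site. None of these motifs occurred in the Nab2 window. Of all 32851 windows of this length, 1.63% held a CArG box, 5.55% the Egr motif and 20.8% the half-site, and no match overlapped another in the printed windows. These matches describe the sequence only.

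Libraries held 6344186 to 13312234 reads in genes, so that 3 reads, the smallest number read as detection, equal 0.225 to 0.473 CPM, a limit that covers counting error only. CPM, the deposited scale, sets each library to the same total. Itgav, the targeted gene, had 55.2, 43.5 and 60.5 CPM in TH2 Itgav KO cells, against 250, 195 and 313 CPM in TH2 control cells, and 42.8, 21.3 and 28.1 CPM in TH1 Itgav KO cells, against 227, 228 and 154 CPM in TH1 control cells. The difference was −2.22 ± 0.25 in TH2 and −2.72 ± 0.25 in TH1 on the log2(CPM + 1) scale (SE, limma, adjusted p = 2.85e-05 and 4.33e-06). The 7 CD4 T cell markers checked, all detected, summed to between 5356 and 6274 CPM in the 12 libraries. The summed level of 5 TH1 markers was 6689 to 6896 CPM in TH1 Itgav KO libraries and 11149 to 13417 CPM in TH1 control libraries. In TH2 cells it was 496 to 544 CPM in Itgav KO libraries and 263 to 395 CPM in control libraries. Most of it there was Il12rb2 (means 512 and 312 CPM). In TH1 Itgav KO cells Ifng, Tbx21 and Il12rb2 were at 48.6%, 66.4% and 75.5% of their TH1 control means. Cxcr3 and Il18rap were at 136% and 179%. The summed level of 6 TH2 markers was 1201 to 1736 CPM in TH2 Itgav KO libraries and 2070 to 3176 CPM in TH2 control libraries, and at most 32.4 CPM in TH1 libraries. In TH2 Itgav KO cells Il5 and Il13 were at 19.7% and 22.7% of their TH2 control means, and Ccr8 at 40.4%. Il1rl1 was at 71.0%, Gata3 at 90.3% and Il4 at 125%. Of the other cell types, 5 B cell markers summed to 9.15 to 11.98 CPM in TH2 Itgav KO libraries, against 3.75 to 7.12 CPM in TH2 control libraries, mostly from Cd79b, while the sums of myeloid, erythroid, and NK and CD8 T cell markers were at most 12.1, 3.31 and 19.3 CPM in any library and all 5 mast cell and basophil markers were at 0. The part of these shifts in the results below was not tested. TH2 control 1 held 58400 CPM of the ribosomal transcript Rn45s, against 7510 to 23000 CPM in the other libraries. No label ties a library to a mouse or a culture, so the p-values rest on a spread between samples that may be only technical.

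All 3 Egr genes fell in TH2 Itgav KO cells, and neither Nab gene passed the test. Egr1, Egr2 and Egr3 were at 18.9%, 21.8% and 20.3% of their TH2 control means, while Nab1 was at 93.9% and Nab2 at 69.5%. The 3 genes called lower stand against 1.67% of all tested genes called lower in this comparison, at an adjusted p below 0.05. In bulk RNA, fewer cells with a transcript and less of it per cell cannot be told apart.

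**Figure D1:**
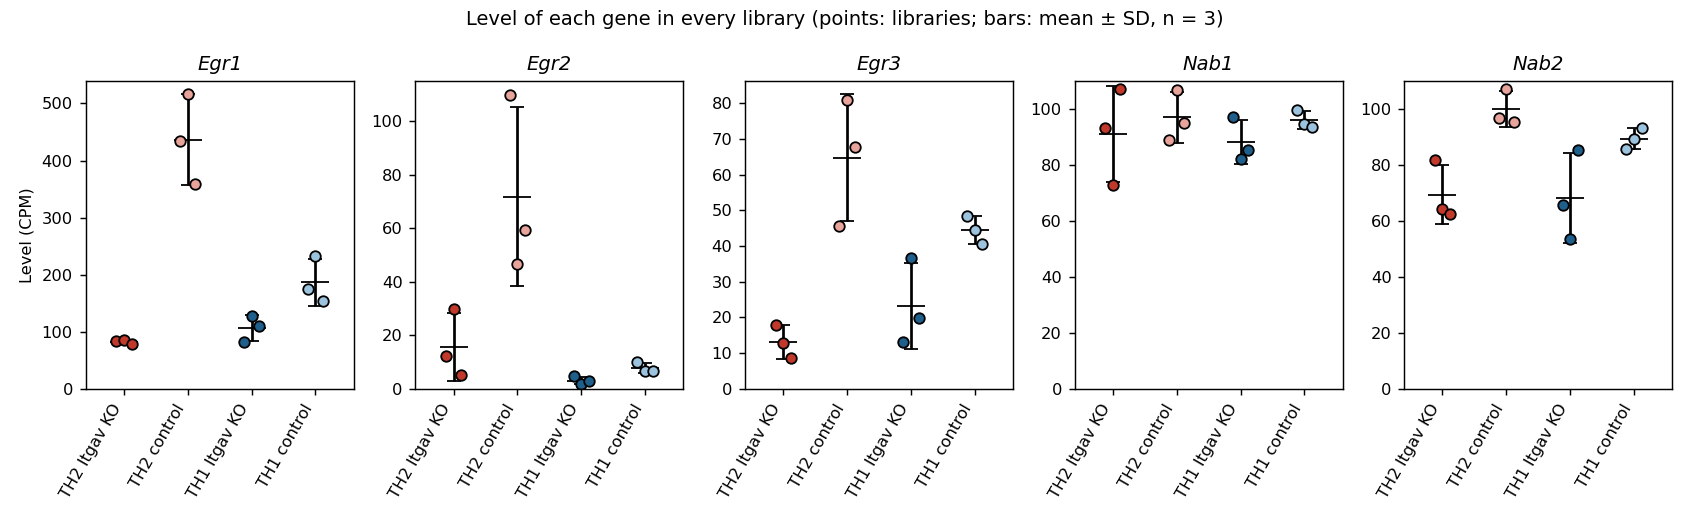
Level of each gene in CPM (vertical axis, from 0, its own scale for each gene) in the 12 libraries, grouped as TH2 Itgav KO, TH2 control, TH1 Itgav KO and TH1 control. Points are libraries and bars the mean ± SD (n = 3). The TH2 control points of Egr1 (359 to 517 CPM) lie above every other library, and the 4 groups of Nab1 overlap.

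Egr1, a zinc finger activator that marks recent receptor signalling, had 84.0, 85.0 and 78.4 CPM in TH2 Itgav KO libraries, against 434, 517 and 359 CPM in TH2 control libraries. The groups did not overlap, and the 3 KO libraries lay close together (82.4 ± 3.55 CPM, against 437 ± 79.2 CPM, SD, n = 3 each). The difference was −2.38 ± 0.19 on the log2(CPM + 1) scale (SE, limma, adjusted p = 2.70e-07). Egr1 was among the genes that the study singled out on these samples, so this change is not independent evidence.

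Egr3, an activator whose known roles overlap those of Egr2, had 18.0, 12.8 and 8.68 CPM in TH2 Itgav KO libraries, against 45.6, 80.7 and 67.8 CPM in TH2 control libraries. Again no KO library reached the lowest control library. The log2 difference was −2.23 ± 0.36 (SE, limma, adjusted p = 0.00111), with a 95% interval of −2.98 to −1.48.

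Egr2, known in T cells for anergy and for the control of effector responses, was the most variable of the 3. Its levels were 12.3, 29.6 and 5.10 CPM in TH2 Itgav KO libraries, against 109.5, 46.6 and 59.1 CPM in TH2 control libraries. The groups stayed apart, but KO library 2 was several times as high as KO library 3, and control library 1 stood above the other two. Egr2 fell by 2.33 on the log2 scale (SE 0.52, limma, adjusted p = 0.0149, 95% interval −3.41 to −1.25). The call was lost without TH2 control 1 (adjusted p = 0.0548) and without TH2 Itgav KO 3 (log2 −1.76, adjusted p = 0.0755), and the difference grew to −2.92 without TH2 Itgav KO 2. Egr2 passed the filter on low values through its TH2 libraries.

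Nab1, a corepressor of Egr1 and Egr2, had 93.4, 73.0 and 107 CPM in TH2 Itgav KO libraries, against 88.9, 107 and 95.2 CPM in TH2 control libraries. The groups overlapped over most of their range. The log2 difference was −0.10 with a 95% interval of −0.49 to 0.29 (limma, adjusted p = 0.815), an interval that leaves out a fall of the size seen for any Egr gene.

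Nab2, the corepressor that Egr proteins are known to induce, had 81.7, 64.2 and 62.7 CPM in TH2 Itgav KO libraries, against 97.0, 107 and 95.5 CPM in TH2 control libraries. Every KO library lay below every control library, yet the log2 difference of −0.53 ± 0.20 did not pass the test (SE, limma, adjusted p = 0.161). Its 95% interval ran from −0.95 to −0.10. With Nab2, 4 of the 5 genes were lower without overlap, as were 8.76% of all tested genes. Of the exon bases of Nab2, 35.7% lie opposite an antisense gene (Gm16229), 5.13% opposite Nemp1 and 1.36% opposite Stat6, and the library kit does not mark strand, so reads of these genes cannot be told apart there. Stat6, the transducer of the IL-4 signal, averaged 61.6 CPM in TH2 Itgav KO cells and 69.5 CPM in TH2 control cells, with a log2 difference of −0.19 (limma, adjusted p = 0.771).

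The corresponding loss in TH1 cells asked whether the Egr genes depend on Itgav outside TH2 conditions. Egr1 was the 1 gene of the 5 called lower, against 0.515% of all tested genes, and its call was close to the threshold. Egr1, Egr2 and Egr3 were at 56.9%, 40.3% and 52.1% of their TH1 control means, Nab1 at 91.9% and Nab2 at 76.2%.

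Egr1 had 81.7, 128 and 109.5 CPM in TH1 Itgav KO libraries, against 174, 233 and 154 CPM in TH1 control libraries. The groups did not overlap, with a gap from 128 CPM in the highest KO library to 154 CPM in the lowest control library. The log2 difference was −0.81 ± 0.19 (SE, limma, adjusted p = 0.0492). The call was lost in 13 of 22 alternative analyses, 8 of which leave out 1 library: each TH1 Itgav KO library (adjusted p = 0.193, 0.058 and 0.136), TH1 control 1 or 2 (0.128 and 0.366), TH2 control 3 (0.054), or TH2 Itgav KO 1 or 2 (0.0611 and 0.0542).

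Egr2 was low in TH1 cells, with 4.64, 1.92 and 2.77 CPM in TH1 Itgav KO libraries, against 9.94, 6.54 and 6.70 CPM in TH1 control libraries. These levels did not overlap, but at log2 −1.12 ± 0.52 the difference did not pass the test (SE, limma, adjusted p = 0.467). The pseudocount of 1 CPM understates changes at such levels.

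Egr3 had 13.2, 36.7 and 19.8 CPM in TH1 Itgav KO libraries, against 48.4, 44.5 and 40.5 CPM in TH1 control libraries. All KO libraries were lower, KO library 2 only slightly so. The log2 difference of −1.02 ± 0.36 did not pass the test (SE, limma, adjusted p = 0.238).

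Neither Nab gene passed the test in TH1 cells. Nab1 had 97.2, 82.2 and 85.5 CPM in TH1 Itgav KO libraries, against 99.7, 94.8 and 93.7 CPM in TH1 control libraries, which overlapped (log2 −0.12, 95% interval −0.51 to 0.27, limma, adjusted p = 0.902). Nab2 had 65.7, 53.5 and 85.4 CPM in TH1 Itgav KO libraries, against 85.8, 89.5 and 93.1 CPM in TH1 control libraries. The Nab2 groups were separated by the narrow step between 85.4 and 85.8 CPM, and the log2 difference of −0.41 did not pass the test (95% interval −0.84 to 0.01, limma, adjusted p = 0.517). In all, 4 of the 5 genes were lower without overlap in TH1 cells, as were 10.6% of all tested genes.

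**Figure D2:**
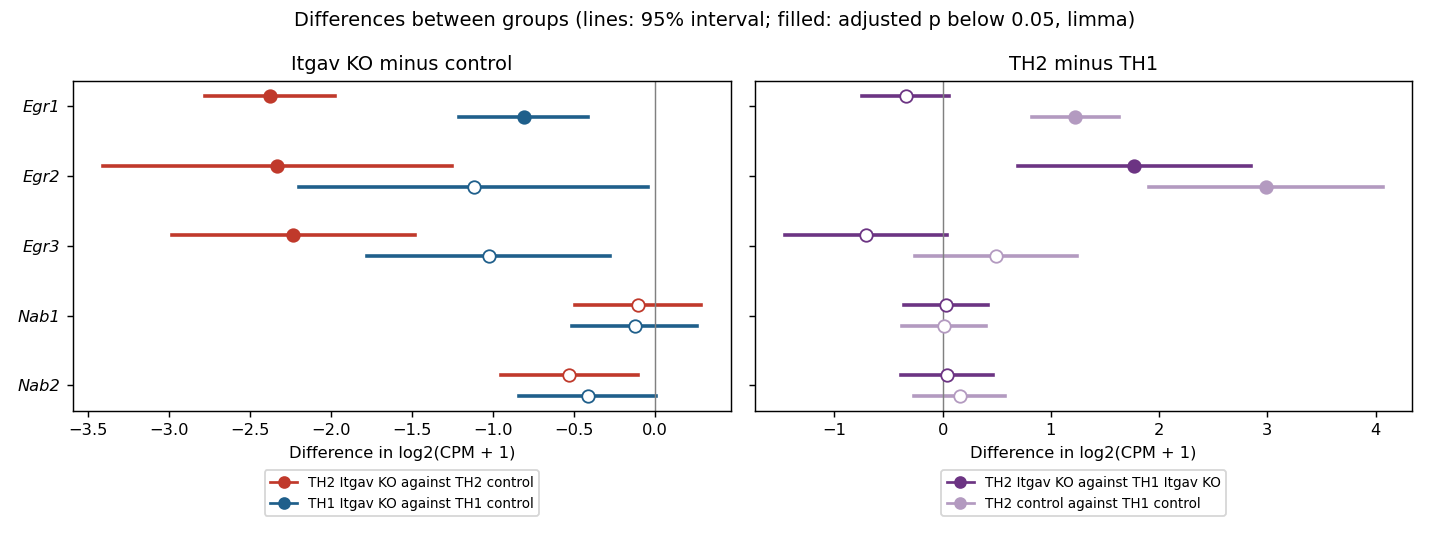
Difference in log2(CPM + 1) (horizontal axis) for each gene, Itgav KO minus control on the left and TH2 minus TH1 on the right. Lines are 95% intervals and filled points had an adjusted p below 0.05 by limma. On the left, the 3 Egr genes are filled in TH2 cells (−2.38, −2.33 and −2.23) and only Egr1 is filled in TH1 cells (−0.81), while both Nab genes are open. On the right, Egr2 is filled in both comparisons.

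A direct test of the TH2 effect minus the TH1 effect asked whether the loss of Itgav acted more strongly in TH2 cells. Egr1 passed this test: the effects differed by −1.57 ± 0.27 on the log2 scale (SE, limma interaction, adjusted p = 0.0214), where 0.143% of all tested genes were called in that direction. The call was lost in 5 of 21 alternatives. These were the fits without TH1 control 1 (adjusted p = 0.0651), TH1 Itgav KO 2 (0.0537) or TH1 Itgav KO 3 (0.0578), with no filter (0.137) and with no variance trend (0.174). Egr2 and Egr3 had differences of the same sign, both −1.21, that did not pass the test, with 95% intervals of −2.74 to 0.31 and −2.27 to −0.15 (limma, adjusted p = 0.567 and 0.386). For Nab1 the difference was 0.02, with an interval of −0.53 to 0.57. For Nab2 it was −0.11, with an interval of −0.71 to 0.48. This test uses the same control libraries as the comparisons above and those between subsets that follow.

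Between subsets, TH2 cells differed from TH1 cells chiefly in Egr2. In control cells its mean was 9.29 times as high in TH2 as in TH1 (log2 2.99 ± 0.52, SE, limma, adjusted p = 0.000233), with the lowest TH2 library at 46.6 CPM and the highest TH1 library at 9.94 CPM. With no filter on low values this call held (0.00572). In Itgav KO cells it was 5.03 times as high in TH2 as in TH1 (log2 1.77 ± 0.52, adjusted p = 0.0164), although TH2 Itgav KO 3, at 5.10 CPM, stood just above the highest TH1 Itgav KO library, at 4.64 CPM. Egr2 was the 1 gene of the 5 higher without overlap here, as were 19.9% of all tested genes. Since Egr2 reached the filter level of 10 CPM in TH2 libraries alone, it could enter the tests between subsets only through the TH2 side. The KO call was lost with no filter (adjusted p = 0.066), without TH2 Itgav KO 2 (log2 1.183, adjusted p = 0.126) or without TH1 Itgav KO 2 (0.0675), and the log2 difference was 2.35 without TH2 Itgav KO 3.

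Egr1 was 2.34 times as high in TH2 control as in TH1 control cells (log2 1.23 ± 0.19, SE, limma, adjusted p = 7.44e-05), without overlap. In KO cells the TH2 mean was 0.775 of the TH1 mean, with overlapping libraries and no call (log2 −0.34, 95% interval −0.74 to 0.06, limma, adjusted p = 0.22). Egr3 passed in neither comparison. Its log2 difference was 0.50 between TH2 and TH1 control cells (95% interval −0.25 to 1.25) and −0.71 between TH2 and TH1 KO cells (−1.46 to 0.04, limma, adjusted p = 0.388 and 0.168).

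Nab1 and Nab2 were at like levels in both subsets, although only intervals can say how like. The log2 difference of Nab1 was 0.01 in control cells (−0.38 to 0.40) and 0.03 in KO cells (−0.36 to 0.42). That of Nab2 was 0.16 in control cells (−0.27 to 0.58) and 0.04 in KO cells (−0.38 to 0.47). So 2 of the 5 genes were called higher in TH2 control cells, against 8.58% of all tested genes, and 1 of 5 in TH2 KO cells, against 12.2%, a share not far from the background. Egr1, Egr2 and Nab2 were higher in TH2 control cells without overlap, as were 16.6% of all tested genes.

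Order of the levels by group differed between the genes. Egr1 ran highest in TH2 control, then TH1 control, TH1 Itgav KO and TH2 Itgav KO cells, and the last pair overlapped. For Egr3 the order was the same, and its TH2 control and TH1 control libraries overlapped, as did the KO groups. For Egr2 both TH2 groups stood above both TH1 groups by their means, though TH2 Itgav KO 3 lay below every TH1 control library. All 6 control libraries of Nab2 stood above all 6 KO libraries, and the 4 groups of Nab1 overlapped. Egr4, the remaining family member, was listed at 0 in 9 libraries, at 0.114 and 0.110 CPM in TH2 control 2 and 3, and at 1.02 CPM in TH1 control 1, the single library above the detection limit.

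Levels of different genes were compared per kilobase of the longest coding transcript (GENCODE M21 on GRCm38). Egr1, at 4484 bases, made up most of the Egr transcript in every group, with a mean share of the summed Egr1, Egr2 and Egr3 level of 69.6% in TH2 Itgav KO, 70.4% in TH2 control, 77.8% in TH1 Itgav KO and 74.6% in TH1 control cells. Egr2 (chr10:67535475-67542188, plus strand, 2965 bases) held 18.1% and 17.6% in TH2 Itgav KO and TH2 control cells, and 3.84% and 4.78% in TH1 Itgav KO and TH1 control cells. Thus the mix of Egr transcripts was alike in KO and control cells of a subset, while their sum was not. Single TH2 Itgav KO libraries ranged widely in the Egr2 share, between 8.03% and 31.1%.

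Summed per kilobase, the 3 Egr genes had 27.4, 32.2 and 21.4 CPM/kb in TH2 Itgav KO libraries, against 145, 152 and 117 CPM/kb in TH2 control libraries. In TH1 cells the sums were 23.1, 38.5 and 30.4 CPM/kb in Itgav KO libraries, against 54.5, 65.5 and 46.8 CPM/kb in control libraries. The KO libraries of the subsets overlapped, and their control libraries did not. Nab1 (chr1:52457294-52500679, minus strand, 3874 bases) and Nab2 (chr10:127660918-127668568, minus strand, 2582 bases) together had 43.7 to 55.7 CPM/kb in TH2 Itgav KO libraries, against 60.5 to 69.2 CPM/kb in TH2 control libraries, and 41.9 to 55.1 CPM/kb in TH1 Itgav KO libraries, against 59.0 to 60.3 CPM/kb in TH1 control libraries.

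**Figure D3:**
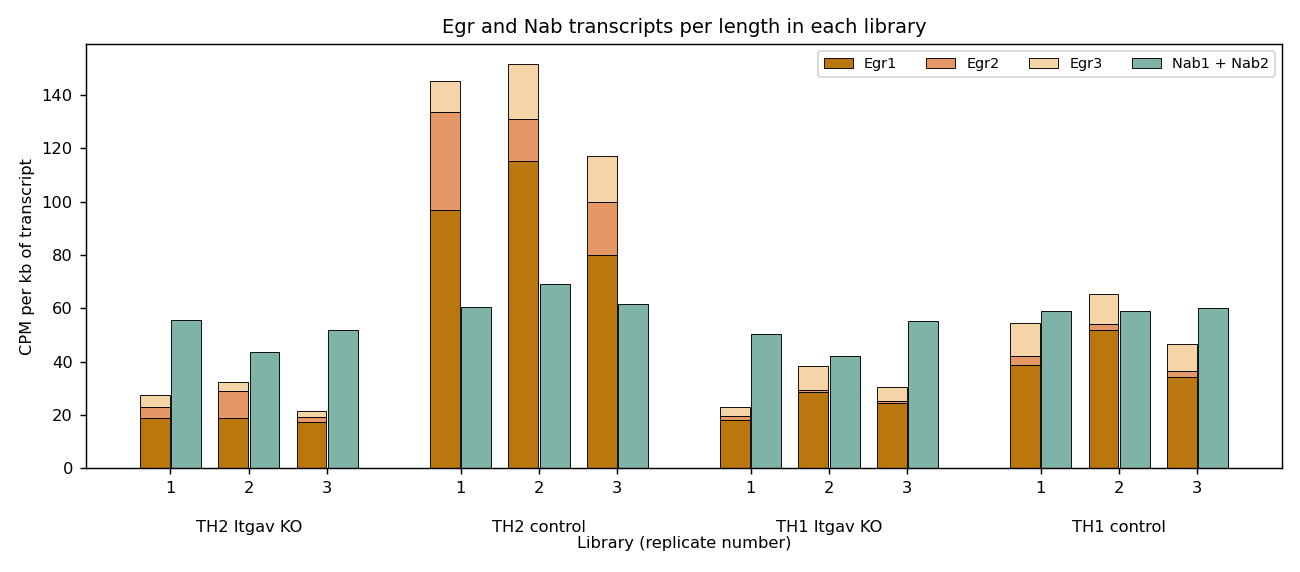
Summed level in CPM per kilobase of transcript (vertical axis, from 0) in each library, with Egr1, Egr2 and Egr3 stacked in orange shades beside Nab1 plus Nab2 in green. The Egr stack is taller than the Nab bar in the 3 TH2 control libraries and in TH1 control 2 (65.5 against 59.1 CPM/kb), and shorter in all 6 Itgav KO libraries.

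The ratio of Nab to Egr transcript followed from these sums. It was 2.03, 1.36 and 2.43 in TH2 Itgav KO libraries, against 0.416, 0.456 and 0.525 in TH2 control libraries. In TH1 cells it was 2.19, 1.09 and 1.82 in Itgav KO libraries, against 1.08, 0.903 and 1.29 in control libraries. The TH2 ratios were far apart between KO and control, and the TH1 ratios overlapped. These ratios reuse the levels already tested and carry no test, and they say nothing of protein.

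Across the 12 libraries, Egr1 and Egr3 varied together (Pearson r = 0.895 on log2(CPM + 1)), and Egr1 varied with Nab2 (r = 0.754) more than with Egr2 (r = 0.689) or Nab1 (r = 0.283). These values describe 4 groups whose means differ and carry no test. The genes most like Egr1 were Plek (r = 0.956), the pleckstrin of leukocytes, then Heatr1 (0.933), Rap1b (0.907) and Txnrd1 (0.901), with Egr3 next. Plek had means of 16.6 CPM in TH2 Itgav KO, 88.2 CPM in TH2 control, 17.7 CPM in TH1 Itgav KO and 52.8 CPM in TH1 control cells, the same order of means as Egr1. Among those most like Egr2 were B3gnt2 (r = 0.978), Hyou1 (0.959), Tank (0.946) and Anp32a (0.946). Those nearest to Egr3 were Uso1 (0.946), Ccdc50 (0.916), Plek (0.912), Polr3d (0.895) and Egr1. The closest to Nab1 were Bid (0.958), Zcchc10 (0.935), Tgif1 (0.925), Ewsr1 (0.894) and Pacrgl (0.876), and to Nab2 Serf1 (0.880), Vcp (0.879), Csf2 (0.861), Syn1 (0.836) and Zranb1 (0.832).

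The genes that carry the receptor signal to the Egr genes, and those that the Egr proteins are known to control, were counted from 5 lists. The upstream list of 22 genes that link the T cell receptor to ERK and serum response factor was tested in full. In TH2 Itgav KO cells 2 were higher and 3 lower at an unadjusted p below 0.05 by limma, against 10.6% and 8.50% of all tested genes. The median log2 difference was −0.07 (0.04 over all tested genes). After adjustment 1 was called higher and 1 lower, against 1.92% and 1.67% of all tested genes. The lower one was Lcp2, the adaptor SLP-76, which averaged 355 CPM in TH2 Itgav KO cells and 555 CPM in TH2 control cells (log2 −0.65, limma, adjusted p = 0.0162), a call lost without TH2 control 2 (0.0717) or TH2 Itgav KO 2 (0.0755), with no filter (0.0609) and with no variance trend (0.112). The higher one was Rasgrp1, the exchange factor that loads Ras in T cells, which averaged 421 CPM in TH2 Itgav KO and 284 CPM in TH2 control cells (log2 0.57, adjusted p = 0.015), a call lost without TH2 control 3 (0.0512), with no variance trend (0.0993) and with only the groups compared (0.0832). Rasgrp1 was also the 1 called gene of this list in TH1 cells, where 0.329% of all tested genes were called higher and the list's median was 0.05 (0.00 over all tested genes). At an unadjusted p below 0.05 by limma, 5 genes of the list were higher and 1 lower there, against 4.41% and 5.68% of all tested genes. Rasgrp1 averaged 434 CPM in TH1 Itgav KO and 240 CPM among TH1 control libraries (log2 0.85, adjusted p = 0.00112), a call lost with no variance trend (0.0528). None of 12 tested calcineurin and NFAT genes passed in TH2 or TH1 cells by limma (medians −0.03 and 0.02, with 1 and 0 genes at an unadjusted p below 0.05), and Nfatc2, the most highly expressed, had a log2 difference of 0.40 in TH2 cells (adjusted p = 0.217).

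Other immediate early genes, 20 of 23 tested, shared the direction of the Egr genes in part. In TH2 Itgav KO cells 4 were called lower and 0 higher by limma, against 1.67% lower and 1.92% higher of all tested genes. At an unadjusted p below 0.05, 9 were lower and 0 higher, against 8.50% and 10.6% of all tested genes. Of the 20, 17 had a negative difference, against 46.6% of all tested genes, and the median was −0.53 (0.04 over all tested genes). Nr4a3, an orphan nuclear receptor, averaged 6.02 CPM in TH2 Itgav KO cells and 32.9 CPM in TH2 control cells (log2 −2.36 ± 0.32, SE, limma, adjusted p = 0.000169). Nr4a1, the related receptor used as a reporter of receptor signalling, averaged 30.6 CPM in TH2 Itgav KO cells and 84.1 CPM in TH2 control cells (log2 −1.46 ± 0.24, adjusted p = 0.00119). Dusp6, the phosphatase that ERK induces and that switches ERK off, averaged 178 CPM in TH2 Itgav KO cells and 468 CPM in TH2 control cells (log2 −1.36 ± 0.20, adjusted p = 0.000527). Dusp2, another such phosphatase, fell by 0.80 on the log2 scale (adjusted p = 0.0205), a call lost without TH2 control 2 (0.0741) or 3 (0.0511) without TH2 Itgav KO 1 (0.0705) or 2 (0.0964), with no filter (0.0887), no variance trend (0.115) and only the groups compared (0.0765). The Nr4a genes and Egr1 are not independent support, since the study named Nr4a1 and Egr1 from these samples. The list as a whole was also drawn up with earlier results of these data known, so its counts and median are not independent either.

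In TH1 Itgav KO cells Nr4a2 was the 1 immediate early gene called, and it was lower, as were 0.515% of all tested genes. The median of the 20 genes was −0.28. At an unadjusted p below 0.05 by limma, 10 were lower and 0 higher (5.68% and 4.41% of all tested genes). A negative difference was seen for 15 (50% of all tested genes). Nr4a2 had 48.3 CPM in TH1 Itgav KO and 200.4 CPM in TH1 control cells (log2 −2.07, limma, adjusted p = 0.0194). That call was lost with no filter (0.199) or no variance trend (0.17), without any 1 of the TH1 control libraries (0.0957, 0.0717 and 0.0987) or without TH1 Itgav KO 2 (0.112) or 3 (0.133). Dusp6 averaged 31.4 CPM in TH1 Itgav KO and 29.4 CPM in TH1 control cells. Its effect differed between the subsets (log2 −1.45, limma interaction, adjusted p = 0.0326), where 0.143% of all tested genes were called lower. This Dusp6 call was lost in 11 of 21 alternatives, 8 of them with 1 library left out (0.0513 to 0.092). At an unadjusted p below 0.05 for that difference by limma, 1 of the 20 genes was higher and 4 were lower, against 5.96% and 5.02% of all tested genes.

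**Figure D4:**
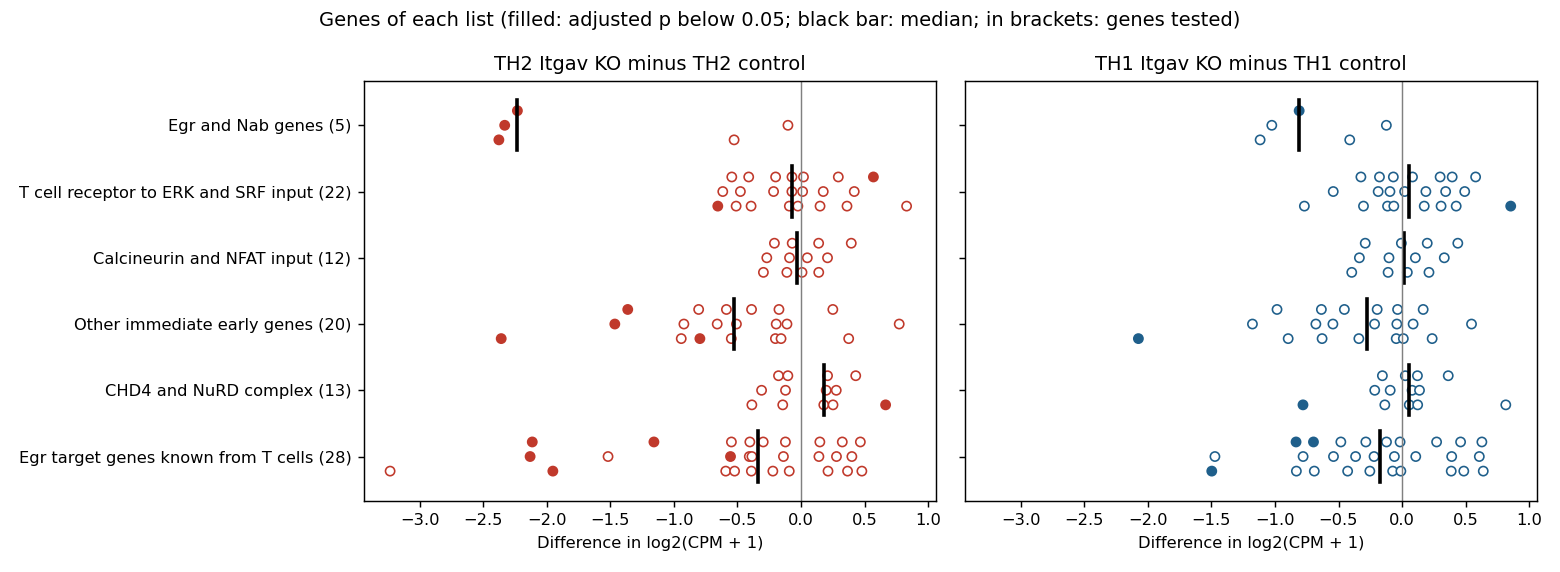
Difference in log2(CPM + 1) (horizontal axis) for the Egr and Nab genes and for each tested gene of the 5 lists, in TH2 cells on the left and TH1 cells on the right. Filled points had an adjusted p below 0.05 by limma and black bars are medians. The immediate early genes (median −0.53) and the Egr target genes (−0.34) lie to the left of the upstream lists in TH2 cells.

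Genes known in T cells as Egr targets, 28 of 33 tested, had 5 members called lower and 0 higher by limma in TH2 Itgav KO cells, against 1.67% lower and 1.92% higher of all tested genes. At an unadjusted p below 0.05, 10 were lower and 1 higher (8.50% and 10.6% of all tested genes), and the median was −0.34 (0.04 over all tested genes). Lag3, an inhibitory receptor induced with Egr2, had 21.2, 27.4 and 7.99 CPM in TH2 Itgav KO libraries, against 74.9, 71.9 and 82.0 CPM in TH2 control libraries. The groups were well apart (log2 −2.11 ± 0.32, SE, limma, adjusted p = 0.000527). Sema7a, a membrane semaphorin, had 8.50, 10.2 and 9.09 CPM in TH2 Itgav KO libraries, against 32.3, 51.9 and 34.5 CPM in TH2 control libraries, again without overlap (log2 −1.95 ± 0.25, adjusted p = 0.000102). Id3, the inhibitor of E proteins, averaged 18.0 CPM in TH2 Itgav KO and 41.7 CPM in TH2 control cells (log2 −1.16 ± 0.22, adjusted p = 0.00412), a call lost with only the groups compared (0.136).

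Nrgn, neurogranin, averaged 16.3 CPM in TH2 Itgav KO cells and 75.5 CPM in TH2 control cells (log2 −2.13 ± 0.52, SE, limma, adjusted p = 0.0272). Its libraries did not overlap, but the call was lost without TH2 control 2 (0.103) or 3 (0.0521) without any 1 of the TH2 Itgav KO libraries (0.0561, 0.0821 and 0.0753), with no filter (0.0853) and with a pseudocount of 0.5 CPM (0.0692). The other called target was Cd5, a brake on receptor signalling (log2 −0.55, limma, adjusted p = 0.0478). That call is close to the threshold, and its values under the alternatives are not given. Cd5 is also among the CD4 T cell markers summed above. The target list was drawn up with earlier results of these data known.

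In TH1 Itgav KO cells 3 targets were called lower and 0 higher by limma, against 0.515% lower and 0.329% higher of all tested genes. At an unadjusted p below 0.05, 7 were lower and 3 higher (5.68% and 4.41% of all tested genes), and the median was −0.17 (0.00 over all tested genes). Sema7a averaged 65.8 CPM in TH1 Itgav KO and 189 CPM in TH1 control cells (log2 −1.50 ± 0.25, SE, adjusted p = 0.00267), a call lost without TH1 control 2 (0.0551). Cblb, the ubiquitin ligase of anergic T cells, averaged 401 CPM in TH1 Itgav KO and 722 CPM among TH1 control libraries (log2 −0.83, adjusted p = 0.0238), whereas in TH2 cells its means were 139 CPM in Itgav KO and 151 CPM in control libraries. Cd44, the hyaluronan receptor of activated T cells, averaged 178 CPM in TH1 Itgav KO and 288 CPM among TH1 control libraries (log2 −0.70, adjusted p = 0.0289). The Cblb call was lost without TH1 control 1 or 2 or any 1 of the TH1 Itgav KO libraries (0.0655 to 0.167). It was also lost with no filter (0.165) and with no variance trend (0.201). The Cd44 call was lost without any 1 of the 6 TH1 libraries (0.092 to 0.141). No filter (0.104), TMM scaling (0.0534) and no variance trend (0.197) lost it too. Id3 was the 1 target called for a difference of effects between subsets (log2 −1.62, limma interaction, adjusted p = 0.0245), where 0.143% of all tested genes were called lower. It averaged 208 CPM in TH1 Itgav KO and 151 CPM in TH1 control cells. This Id3 call was lost in 8 of 21 alternatives, 6 of them with 1 library left out (0.051 to 0.105). At an unadjusted p below 0.05 for that difference by limma, 3 targets were higher and 5 lower, against 5.96% and 5.02% of all tested genes.

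Of the 13 genes of CHD4 and the NuRD complex, through which Nab proteins repress, 1 was called higher in TH2 Itgav KO cells. Another was called lower in TH1 Itgav KO cells. Of all tested genes, 1.92% were called higher in TH2 and 0.515% lower in TH1 Itgav KO cells. The medians of the list were 0.18 and 0.06 (0.04 and 0.00 over all tested genes). Mta3 averaged 190 CPM in TH2 Itgav KO and 119 CPM in TH2 control cells (log2 0.67, limma, adjusted p = 0.0452), a call lost in 16 of 22 alternatives. Hdac2, a deacetylase, averaged 116 CPM in TH1 Itgav KO and 201 CPM among TH1 control libraries (log2 −0.78, limma, adjusted p = 0.0196). Its call was lost without any 1 of the TH1 control libraries or without TH1 Itgav KO 2 or 3 (0.0506 to 0.145), and with no variance trend (0.103). Chd4 itself averaged 516 CPM in TH2 Itgav KO and 571 CPM in TH2 control cells. The effects of Itgav loss on the NuRD, calcineurin and NFAT, and upstream lists gave 0 calls of a difference between the subsets by limma. Such calls were rare over all genes too, at 37 of 9121 tested, so 0 calls say little about these lists. At an unadjusted p below 0.05, the NuRD list had 1 gene higher, the calcineurin and NFAT list 0 and the upstream list 3 lower. Of all tested genes, 5.96% were higher and 5.02% lower by that measure.

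Between the subsets the same lists split. In TH2 against TH1 control cells, 3 immediate early genes were called higher and 7 lower, and 4 Egr targets were called higher and 10 lower (limma, against 8.58% higher and 9.75% lower of all tested genes). Dusp6, at 468 CPM in TH2 control and 29.4 CPM in TH1 control cells, and Nrgn, at 75.5 CPM in TH2 control and 0.882 CPM in TH1 control cells, were higher in TH2 cells like Egr1 and Egr2 (log2 3.93 and 5.47). Nrgn too passed the filter through TH2 libraries alone, and with no filter its call held (adjusted p = 4.27e-05). Nr4a3 (log2 −2.83), Nr4a2 (−2.42) and Jun (−1.72), and the targets Fasl (−3.24), Cd69 (−2.94) and Tnf (−2.46), were lower in TH2 control cells, the opposite direction to Egr1 and Egr2. Fasl and Cd69 could pass the filter only through their TH1 libraries. Their calls held in all 22 alternatives, among them no filter (highest adjusted p by limma 0.000108 and 0.0174). Tnf, a cytokine gene, averaged 27.2 CPM in TH2 control and 154.6 CPM in TH1 control cells. Lcp2 was higher in TH2 control cells (log2 1.02, adjusted p = 2.79e-05), the 1 call among the 22 upstream genes. Cabin1 and Nfatc2, both of the calcineurin and NFAT list, were lower (log2 −0.73 and −0.65, adjusted p = 0.0258 and 0.0107), as were Chd4 and Mbd2 of the NuRD list (log2 −0.42 and −0.39, adjusted p = 0.00962 and 0.0486). None of these 4 calls held throughout. Mbd2 was lost in 16 of 22 alternatives, 9 of them with 1 library left out (adjusted p up to 0.166). Cabin1 was lost without TH2 control 2 (0.064) or TH1 control 3 (0.179) and with only the groups compared (0.0505). Nfatc2 was lost without TH2 control 2 (0.0668) or TH1 control 2 (0.0511), with no filter (0.0603) and with no variance trend (0.0806), and Chd4 without TH1 control 1 (0.0502) and with no variance trend (0.084).

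Itgav KO cells split too between TH2 and TH1, with 2 immediate early genes called higher and 9 lower, and 6 targets called higher and 11 lower (limma, against 12.2% and 11.6% of all tested genes). Nr4a3 (log2 −4.01), Cd69 (−3.91) and Id3 (−3.47) were lowest in TH2 Itgav KO relative to TH1 Itgav KO cells among the genes named from these lists. Cd69 could enter this test only through its TH1 libraries, and its call held in all 22 alternatives (highest adjusted p by limma 0.00268). Dusp6 (log2 2.48) and Nrgn (3.46) were higher in TH2 Itgav KO than in TH1 Itgav KO cells, as Egr2 was. Calls in the other lists were 3 higher and 4 lower of 22 upstream genes, 0 higher and 2 lower of 12 calcineurin and NFAT genes, and 1 higher and 2 lower of 13 NuRD genes.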

How the data were processed

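Transcripts were measured by RNA-seq in 12 libraries of polarised mouse CD4+ T cells, amplified with a kit that does not mark strand. The authors deposited CPM with 0.0001 added to each value, from reads trimmed with Trim Galore 0.50 and aligned with STAR 2.6.0a to GRCm38, and DESeq2 1.18.1 is also named in the processing notes. What counted the reads per gene, and on which annotation, is not given in the sources used here. A second sheet's 12 per-sample columns were not used. Because CPM adds to a fixed total, an abundant transcript in 1 library lowers all others there.

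The offset was subtracted. After that, 100% of low values were whole multiples of 1 read (tolerance 0.1 reads), which gave the depth. Chi-square per degree of freedom between replicates was 17.8 to 72.8, so none was a library deposited again.

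Genes that reached 10 CPM in 3 or more libraries were tested on log2(CPM + 1) with limma 3.58.1 in R 4.3.3, with a variance trend and group means fitted to the 12 libraries together (residual degrees of freedom 8, prior 12.5). Two-sided p-values were adjusted by the Benjamini-Hochberg method over all 9121 genes, with 0.05 as the threshold. Where a count test had been named for counts, limma was used because the values are CPM. The steps were tested on simulated data.

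The genes, the lists and the rule for naming were chosen with earlier results of these data known. Named were the 5 genes, Itgav, Egr4, overlapping genes, from each list and comparison up to 4 called members of largest change (or the 2 highest where none was called), and the 5 genes most correlated with each member, 1 of which is not reported here. Cd5 was named after its values were seen. Alternatives were other pseudocounts, filters and scalings, no variance trend, a replicate block, only the groups compared, each library left out and, chosen after seeing the data, Rn45s left out.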

Additional observations from a re-analysis of the deposited data

Results flagged for a closer look

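Egr1 was singled out because its response to loss of Itgav differed between the subsets by a test of the difference itself. The TH2 effect minus the TH1 effect was −1.57 on the log2(CPM + 1) scale (SE 0.27, limma interaction, adjusted p = 0.0214). All 3 TH2 Itgav KO libraries (78.4 to 85.0 CPM) lay below all 3 TH2 control libraries (359 to 517 CPM), and all 3 TH1 Itgav KO libraries (81.7 to 128 CPM) below all 3 TH1 control libraries (154 to 233 CPM). The effects therefore had the same direction and differed in size. The adjusted p ranged from 0.00928 to 0.174 over 21 alternatives.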

How the results depend on the processing

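Of the 25 results for the 5 genes (each gene in each of 5 comparisons), 8 passed the test. Their direction was kept in all 174 alternative values, and 25 of these values no longer passed. The falls of Egr1 (highest adjusted p = 0.00161) and Egr3 (0.0207) in TH2 cells, and the higher Egr1 (0.00362) and Egr2 (0.00572) in TH2 than in TH1 control cells, passed under all 22 alternatives. None of the 369 alternative values of the other 17 results passed by limma, and 16 of them, in 6 results, changed sign. The fall of Egr2 in TH2 cells was lost with no filter (0.0828) and no variance trend (0.0671), beside the libraries named above.

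The number of the 5 genes called in TH1 Itgav KO against TH1 control was 0 instead of 1 with a pseudocount of 0.5 CPM, no filter, a filter at 1 CPM, TMM scaling and no variance trend. That for the TH2 effect minus the TH1 effect was 0 instead of 1 with no filter and no variance trend. That for TH2 Itgav KO against TH1 Itgav KO was 0 instead of 1 with no filter and, as Egr2 then failed the filter, with only the groups compared. With 1 library left out each of these ranged from 0 to 1. The cause was not tested.

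Over all genes, calls in TH2 Itgav KO against TH2 control numbered 327, against 141 with no filter, 76 with no variance trend, 125 with only the groups compared, and 158 without TH2 control 2, 208 without TH2 Itgav KO 2 and 209 without TH2 Itgav KO 3. In TH1 cells they numbered 77, against 29 with no variance trend, 367 with only the groups compared and 26 to 124 with 1 library left out. For the difference of effects they numbered 37, against 2 with no filter, 1 with no variance trend and 2 to 50 with 1 library left out. Replicate numbers did not pair the libraries (correlations of deviations −0.0657 to 0.0256 over 18 pairs). With the number as a replicate block, 284 genes were called in TH2, 71 in TH1 and 17 for the difference, and no call of the 5 genes changed, while those of Mta3 (0.061, TH2 Itgav KO), Mbd2 (0.0627, TH2 against TH1 control) and Dusp6 (0.0504, difference of effects) were lost. The planned count tests on recovered reads were not run. Egr4 was above the detection limit in 1 library only.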
